A study of Homo sapiens with 6 samples.

Results

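WM983-B is an established human melanoma cell line, from which 6 xenograft tumors were grown. Total RNA was extracted from the tumors and went into the sequencing libraries. The tumor names in the labels fall into 2 sets, named here by the word they share: 4 libraries of the Juni2018 set and 2 libraries of the blau set. All 6 of the 6 tumors of the series entered the comparison. The sets were compared across all genes, with treatment as a covariate. Juni2018 replicates 1 and 2 came from tumors of animals given anle138b, a diphenyl-pyrazole compound that binds oligomers of aggregating proteins, and replicates 3 and 4 came from untreated tumors. Blau replicate 1 was an anle138b tumor and blau replicate 2 an untreated one, so each set held both treatments. The sources used here do not say what the words stand for (an experiment, a date, a batch of cells or a mark on the animals), nor the dose or the host strain. A difference between the sets therefore cannot be told apart from anything else that changed with the naming. Whether each tumor grew in an animal of its own is not in the labels. The p-values thus reflect only how far these libraries scatter, which may be technical, and within the blau set that scatter rests on 2 libraries that also differ in treatment.

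Melanoma cells descend from melanocytes, and the transcription factors SOX10 and MITF hold the pigment cell program in them. Other programs, such as those of cell junctions, extracellular matrix or fetal tissue, vary between melanomas that keep these factors. Genes that adult melanocytes keep silent, such as the fetal RNA-binding protein LIN28B, the desmosome protein DSP or posterior HOX genes, are recognisable as present or absent rather than merely higher or lower. Levels below are given in CPM, a gene's counts relative to the size of its library, scaled between libraries by trimmed mean of M values (TMM). A difference is always blau minus Juni2018 on the log2 scale, so that 1 stands for a 2-fold higher level in blau. A gene is said to be called where edgeR's quasi-likelihood test with Benjamini-Hochberg adjustment gave an adjusted p under 0.05.

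Depth was 13874820, 12400782, 15865560 and 14464593 counts in Juni2018 replicates 1 to 4, and 27599159 and 22768826 in blau replicates 1 and 2. Both blau libraries were thus deeper than the other 4. A level of 3 counts, the most that a count of 0 allows, corresponded to 0.183 to 0.239 CPM in Juni2018 and to 0.105 and 0.126 CPM in blau, for counting error only. Mitochondrially encoded genes took 1.77% to 2.81% of counts in Juni2018 and 1.38% and 3.09% in blau. Small RNAs annotated as misc_RNA took 1.28% to 2.69% in Juni2018 and 1.36% and 0.543% in blau. The pair of anle138b libraries and the pair of untreated libraries of the Juni2018 set differed by more than sampling noise (chi-square per degree of freedom of 9.16 and 8.97), so each library counted as 1 sample.

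The melanocyte lineage factors were expressed in all 6 tumors. SOX10, the neural crest factor that maintains melanocytes, stood at 521, 467, 450 and 532 CPM in Juni2018 replicates 1 to 4 and at 442 and 424 CPM in the blau replicates. MITF, the master regulator of pigment cells, stood at 1193, 1204, 971 and 1257 CPM against 946 and 1147 CPM. Both blau libraries lay below the Juni2018 range for SOX10 and overlapped it for MITF. Neither difference was called: it was -0.19 for SOX10 (adjusted p = 0.299, edgeR) and -0.15 for MITF (adjusted p = 0.536, edgeR). The melanosome matrix protein PMEL (-0.50, adjusted p = 0.093 by edgeR) was not called either. Both sets thus carried the transcripts that define the labelled cell type.

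Several genes outside the pigment program were measured far higher in the blau set than in the Juni2018 set. MAGI1, a scaffold protein of tight junctions, was measured at 2.99, 3.43, 3.72 and 3.95 CPM in Juni2018 replicates 1 to 4 and at 158 and 148 CPM in blau (5.44 ± 0.13, SE; adjusted p = 2.13e-08, edgeR; GRCh38 chromosome 3, 65353525 to 66038834). FAT3, a giant atypical cadherin, had 0.766, 1.28, 1.65 and 1.12 CPM in Juni2018 and 29.8 and 55.3 CPM in blau (5.11 ± 0.19, SE; adjusted p = 5.96e-07, edgeR; chromosome 11, 92352096 to 92896470). In each of these genes the lowest blau library lay more than 8-fold above the highest Juni2018 library. HMGA2, a chromatin protein of embryonic and tumor cells, had 4.75, 4.47, 6.22 and 3.8 CPM in Juni2018 and 54.6 and 58.5 CPM in blau (3.54 ± 0.16, SE; adjusted p = 9.69e-07, edgeR; chromosome 12, 65824131 to 65966295). It was thus measured in both sets, as MAGI1 was, but at a higher level in blau.

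LIN28B and DSP came closer to an on and off pattern. LIN28B, which blocks the maturation of let-7 microRNAs, had 0.0766, 0.0798, 0.122 and 0.0745 CPM in Juni2018 and 18.96 and 18.1 CPM in blau (7.58 ± 0.26, SE; adjusted p = 3.92e-07, edgeR; chromosome 6, 104936616 to 105083332). Those values rest on 5 counts over the 4 Juni2018 libraries against 971 counts over the 2 blau libraries, a 206-fold ratio of summed CPM with a 95% counting interval of 87.9 to 635. All 4 Juni2018 libraries were below the level of 3 counts. DSP, the desmosome protein that ties cell junctions to keratin filaments, had 0.460, 0.239, 0.366 and 0.447 CPM in Juni2018 and 75.4 and 67.5 CPM in blau (7.53 ± 0.18, SE; adjusted p = 2.13e-08, edgeR; chromosome 6, 7541575 to 7586717). The sets did not overlap in any of these 5 genes, which were picked with earlier results of these data known, so that their differences are a description. Their calls held with any 1 library left out and under each other setting tried.

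**Figure D1:**
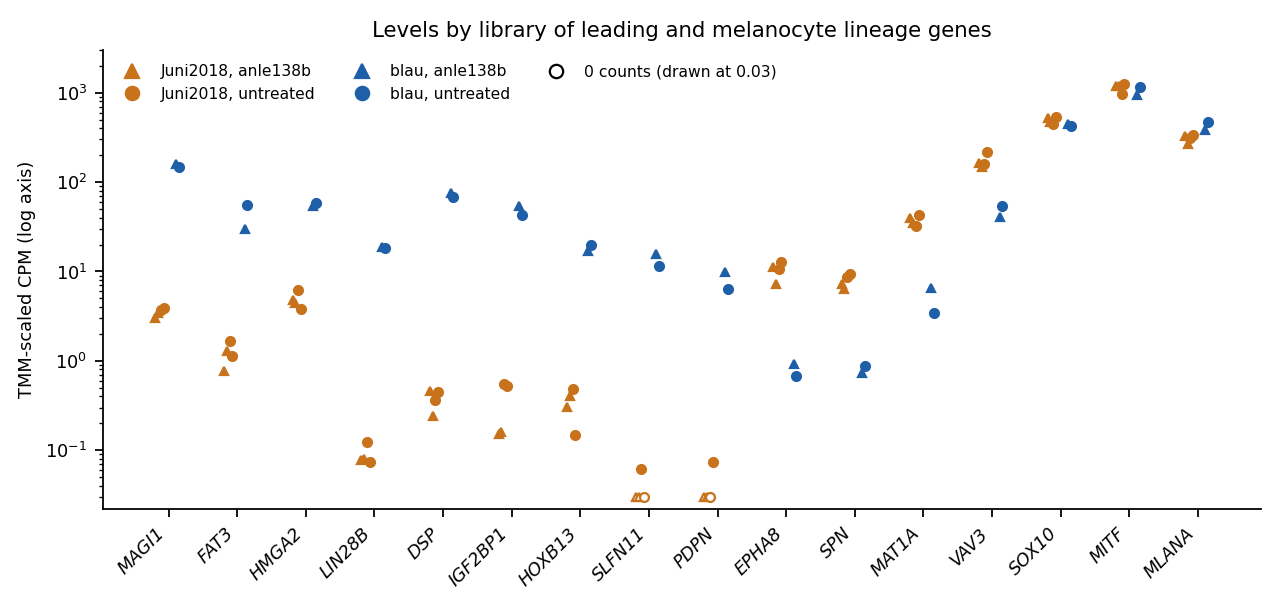
Level of 16 genes in each of the 6 libraries, in TMM-scaled CPM on a log axis; triangles are anle138b tumors, circles untreated tumors, and open symbols libraries with 0 counts, drawn at 0.03. The blau libraries lie above the Juni2018 libraries from MAGI1 to PDPN and below them from EPHA8 to VAV3, while SOX10 and MITF lie close together in both sets and MLANA is slightly higher in blau (0.46).

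Over all genes, the set was the main axis of variation. In a principal component analysis of log2 CPM, the first component held 64.0% of the variance and placed the blau libraries at 75.9 and 80.6 and the Juni2018 libraries between -45.4 and -30.6. The second component held 12.8%, and within each set it placed the anle138b libraries above the untreated ones. Of 21958 genes tested, 4108 were called between the sets (18.7%), 2363 higher in blau (10.8%) and 1745 lower (7.95%). Large differences lay mostly in one direction: 1433 called genes were at least 2-fold higher and 407 at least 2-fold lower, 462 were at least 8-fold higher and 17 lower, and 157 were at least 32-fold higher and 3 lower. The blau libraries fell on one side of all 4 Juni2018 libraries in 3925 of the called genes. Of the called genes, 4107 had the same sign in treated and untreated tumors. Both counts cover only genes that the fit called from these same libraries, which favors such patterns, so they are no separate support. The share of all tested genes with blau on one side was not counted. Sets that lie apart in genes named below are a description, since most of these genes were picked by small p.

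The number of calls depended on single libraries. It was 1665 (1293 higher, 372 lower) without blau replicate 2 and 2229 (1600 higher, 629 lower) without Juni2018 replicate 1. Without Juni2018 replicate 2 it was 5960, of which 2985 were lower, and the lower calls numbered 1050 and 1006 without Juni2018 replicates 3 and 4. Scaling by library size alone gave 2998 higher and 1377 lower genes, so that 68.5% of the calls were higher in place of 57.5%. A requirement of more than a 2-fold difference within the test itself (glmTreat) left 861 genes, 791 higher and 70 lower, so the excess of higher genes was larger among the genes with large differences.

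**Figure D2:**
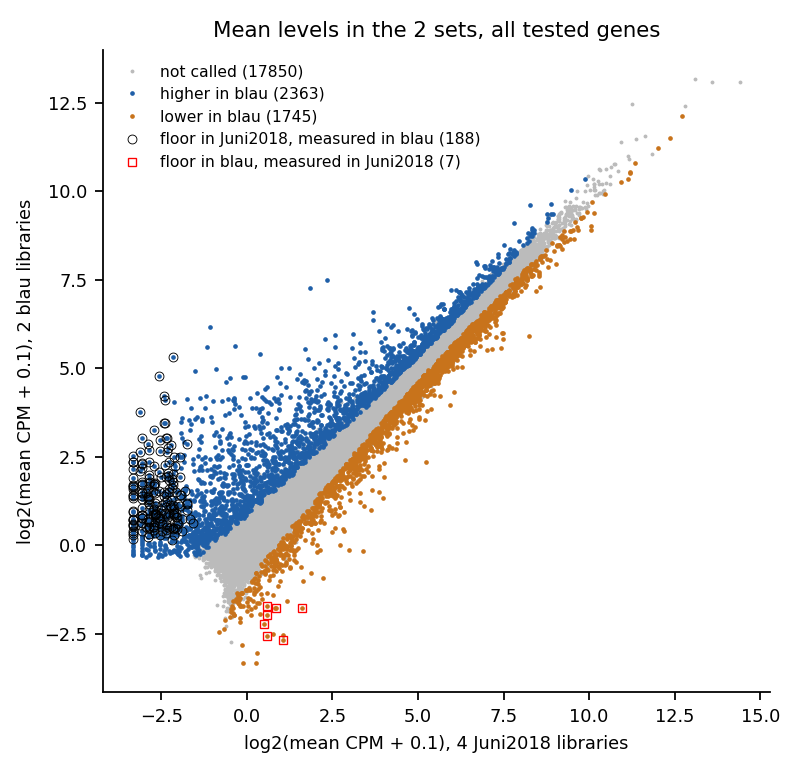
Mean level of each tested gene in the 4 Juni2018 libraries (x axis) and in the 2 blau libraries (y axis), as log2 of mean CPM plus 0.1; blue and orange points are genes called higher and lower in blau, and ringed or boxed points are genes at the floor of one set. The 188 ringed genes at the left edge have no counterpart of like size at the bottom, where 7 genes are boxed.

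Many genes were at the floor of detection in every Juni2018 library and measured in both blau libraries. With the floor set at under 0.25 CPM in each library of one set and at least 1 CPM in each library of the other, limits chosen after the data were seen, 188 genes were present in blau alone, of which 122 were protein-coding. In the opposite direction 7 genes were above the floor in Juni2018 alone (11 with blau replicate 2 left out), of which 2 were protein-coding. These were SH3RF2 (10 counts in blau, 168 in Juni2018) and C6orf223 (10 counts in blau, 93 in Juni2018). With 1 library left out the count was 194 to 243. It cannot fall in that case, since fewer libraries then have to meet the limits, so this range is no test of the count. The count was again 188 with every library thinned to the depth of the shallowest. The mean level of these genes in blau had a median of 2.167 CPM and a highest value of 39.9 CPM. Between the 2 blau libraries their levels differed by a median of 0.18 (interquartile range -0.23 to 0.52, log2 of replicate 1 over replicate 2), against -0.03 (-0.32 to 0.22) for 12678 other genes in the same range of levels.

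Of the genes above the floor in blau alone, 24 had no count in any Juni2018 library. HOXD13, a homeobox gene of the posterior body and limb, had 301 counts in blau and 0 in Juni2018, at least 106-fold higher when the 0 is replaced by the 3 counts it allows over the 4 libraries. MUM1L1, an X-linked gene, had 267 counts against 0 (at least 94.3-fold higher), and GABRA5, a subunit of the GABA receptor, had 135 against 0 (at least 47.7-fold higher). Under DESeq2's Wald test HOXD13 and MUM1L1 were not called (adjusted p = 0.135 and 0.145), with differences of 8.71 and 8.55. SLFN11, a nuclear protein that sensitises cells to DNA-damaging drugs, had 0, 0, 0.061 and 0 CPM in Juni2018 and 15.6 and 11.5 CPM in blau, on 1 count against 718 (761-fold, 95% counting interval 136 to 30100). PDPN, the membrane glycoprotein podoplanin, had 1 count against 435 (461-fold, 82.3 to 18250), and DSC3, a desmosomal cadherin, had 1 against 322 (341-fold, 60.8 to 13520). APBA2, a neuronal adaptor protein, had 4 counts in Juni2018 and 1476 in blau, and ITIH5, which binds hyaluronan in the matrix, had 7 and 2191. The last of these was also uneven within blau, at 62.6 CPM in replicate 1 and 17.2 CPM in replicate 2, yet both lay far above the highest Juni2018 value of 0.224 CPM.

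Stretches of 3 such genes are shown because the genes are near or at 0 in one set and measured in the other, which makes the base composition at an annotated start of interest. They are the 250 bases before the start that RefSeq gives (GRCh38.p14), 5′ to 3′ on the strand of the gene, with every CG dinucleotide in capitals: LIN28B at chr6:104940715-104940964 (plus strand), HOXD13 at chr2:176092471-176092720 (plus strand) and SLFN11 at chr17:35373622-35373871 (minus strand).
LIN28B: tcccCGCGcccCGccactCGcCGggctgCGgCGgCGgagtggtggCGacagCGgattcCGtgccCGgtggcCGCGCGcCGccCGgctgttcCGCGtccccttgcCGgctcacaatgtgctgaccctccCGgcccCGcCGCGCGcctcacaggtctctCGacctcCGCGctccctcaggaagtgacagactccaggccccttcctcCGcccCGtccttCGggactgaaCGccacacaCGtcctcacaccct
HOXD13: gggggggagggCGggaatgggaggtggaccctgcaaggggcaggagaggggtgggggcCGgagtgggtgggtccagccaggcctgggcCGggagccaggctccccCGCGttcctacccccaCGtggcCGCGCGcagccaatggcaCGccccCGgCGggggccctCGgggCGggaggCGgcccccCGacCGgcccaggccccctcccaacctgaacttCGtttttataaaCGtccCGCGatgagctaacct
SLFN11: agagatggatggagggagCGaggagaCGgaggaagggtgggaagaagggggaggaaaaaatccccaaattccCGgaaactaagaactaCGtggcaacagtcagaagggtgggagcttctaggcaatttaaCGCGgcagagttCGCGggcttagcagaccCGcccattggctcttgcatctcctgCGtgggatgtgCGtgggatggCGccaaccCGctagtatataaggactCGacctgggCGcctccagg
The LIN28B stretch holds 33 CG, that of HOXD13 21 and that of SLFN11 15, against a median of 11 over the 27305 promoters of the table and of 20 over the 11514 of 14260 tested protein-coding genes that the table holds. The LIN28B stretch lies inside the gene as GENCODE places it, downstream of the GENCODE start, so it belongs to the RefSeq start alone. DNA methylation was not measured here.

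Some of the genes above the floor in blau alone were neighbors. With gaps of less than 2 Mb, 54 of the 185 with a position fell into 12 runs of at least 3. On chromosome 5, between 141100473 and 141237529, 8 members of the protocadherin beta cluster formed a run, among them PCDHB5 (2 counts in Juni2018, 131 in blau). The other 6 tested genes within it were all higher in blau. On chromosome 10, between 6427143 and 7666998, the run consisted of PRKCQ, a protein kinase of T cells, its antisense gene, SFMBT2 and ITIH5, with no other tested gene between them. On chromosome 15, between 26866363 and 29614274, GABRA5 and APBA2 stood with 4 further such genes. Of the other 11 tested genes there, 5 were higher and 6 not called. On chromosome 2, between 176092891 and 176819310, HOXD13, HOXD9 and LINC01116 were among 4 such genes, and 3 of the 8 others were higher. Not all runs were alike. In another run of chromosome 2, between 129990456 and 131649615, 7 of the 21 other tested genes were higher and 6 lower. On chromosome 3, between 65687301 and 66009200, a run of 5 without a protein-coding gene lay within the span of MAGI1. The library kit did not mark strand, so reads of overlapping sense and antisense genes cannot be told apart.

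Genes that were lower in blau seldom reached the floor. EPHA8, an ephrin receptor of the nervous system, had 11.1, 7.18, 10.7 and 12.8 CPM in Juni2018 and 0.913 and 0.673 CPM in blau (-3.68 ± 0.30, SE; adjusted p = 3.2e-05, edgeR). SPN, the leukocyte surface protein CD43, had 7.28, 6.30, 8.60 and 9.31 CPM against 0.737 and 0.883 CPM (-3.26; adjusted p = 1.29e-05, edgeR). MAT1A, the liver form of methionine adenosyltransferase, had 39.9, 34.5, 32.3 and 42.7 CPM against 6.60 and 3.45 CPM (-2.91; adjusted p = 2.91e-05, edgeR). The sets did not overlap in any of them, which was a condition for naming them, and both blau libraries kept measurable levels. VAV3, a guanine nucleotide exchange factor, stood at 149 to 215 CPM in Juni2018 and at 40.7 and 53.7 CPM in blau (-1.86). The retrotransposon-derived gene PNMA5 (-2.35), AMPH, an endocytosis protein of nerve terminals (-1.98), and the G protein subunit GNG4 (-1.69) were also among the 15 protein-coding genes with the lowest called differences. Among genes that code for no protein, 3 of the 5 with the lowest called differences were 7SL-related RNAs, and of 169 tested misc_RNA genes 32 were lower and 9 higher, with a median of -0.37, while the share of counts in this class was lowest in blau replicate 2.

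Lists of genes with related roles were counted next. They were written with earlier results of these data known, so each count stands beside the 10.8% of all tested genes called higher and the 7.95% called lower, and beside the median of all genes, -0.02. The low-count filter keeps a gene with enough counts in the blau libraries alone. List members near the floor in Juni2018 could thus be tested only through blau, where they were high. This favors higher calls in this and the following lists, and how many members entered in that way was not counted. GABRA2, EPHA4 and NTN4 below are such members. The largest displacement belonged to genes of synapses and ion channels: 21 of 32 were higher and 1 lower, with a median of 1.04. CACNA2D1, an accessory subunit of calcium channels, had 0.373 to 1.04 CPM in Juni2018 and 33.4 and 19.1 CPM in blau (5.36). The sodium channel SCN8A had 0.298 to 0.690 CPM against 5.76 and 5.30 CPM (3.43), and the GABA receptor subunit GABRA2 0.061 to 0.447 CPM against 3.86 and 4.46 CPM (4.11). These were low levels that did not overlap between the sets, in members picked by small p. The number of higher genes in the list was 12 without blau replicate 2 and 14 without blau replicate 1. In axon guidance 10 of 33 genes were higher and 3 lower (6 higher and 1 lower without blau replicate 2, 6 and 2 without blau replicate 1), with a median of 0.30. The ephrin receptor EPHA4 had 0.077 to 0.549 CPM in Juni2018 and 7.23 and 21.8 CPM in blau (5.39), and NTN4, a laminin-related netrin, 0.075 to 0.244 CPM against 7.90 and 3.15 CPM (4.95). SEMA6D, a semaphorin, was measured in both sets and higher in blau (1.396).

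Cell junction and adhesion genes were higher in part. Of 21 desmosome and epithelial junction genes 8 were higher and 3 lower, with a median of 0.41 (7 higher and 1 lower without blau replicate 2). The higher genes included those of the desmosome: DSC3 (7.96), DSP, DSC2 with 0 to 0.183 CPM in Juni2018 and 7.23 and 6.01 CPM in blau (5.84), PKP2, a plakophilin of the desmosome plaque, with 0 to 0.122 CPM against 3.86 and 4.42 CPM (5.73), and DSG2, which was at 29.5 to 42.5 CPM against 79.4 and 73.5 CPM (1.16). CLDN1, a claudin of tight junctions, was higher as well (1.98). The keratins KRT8, at 16.2 to 36.9 CPM in Juni2018 and 6.78 and 8.12 CPM in blau (-1.72), and KRT18 (-0.67; -0.57 and not called without blau replicate 2) were lower. Of 26 cadherins, protocadherins and FAT genes 13 were higher and 2 lower, with a median of 0.45. The number of higher genes was 7 without Juni2018 replicate 1 and 8 without either blau replicate. E-cadherin, CDH1, was at 59.3 to 114 CPM in Juni2018 and at 53.4 and 203 CPM in blau (0.42; adjusted p = 0.194, edgeR), and N-cadherin, CDH2, at 56.1 to 72.7 CPM against 89.5 and 50.2 CPM (0.10; adjusted p = 0.643, edgeR). The higher members included FAT3, the protocadherins PCDHB5 (5.86) and PCDHB14 (3.801), and CDH19, a cadherin of the Schwann cell lineage (0.90).

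Extracellular matrix genes were mostly higher, with 19 of 34 higher, 1 lower and a median of 0.67. VCAN, the proteoglycan versican, had 25.3 to 39.3 CPM in Juni2018 and 91.2 and 77.4 CPM in blau (1.45), and COL6A2, a chain of collagen VI, 2.83 to 5.49 CPM against 31.9 and 20.3 CPM (2.64). COL9A3, a chain of collagen IX, had 9.58 to 20.4 CPM against 79.7 and 73.7 CPM (2.196). In all 3 the sets were apart, which the choice of members by small p favors. The number of higher genes fell to 6 without blau replicate 1 and to 11 without Juni2018 replicate 1, and it was 17 without blau replicate 2. Fibroblast and pericyte markers moved beside this list: their summed level was 803 and 1169 CPM in blau and 615 to 670 CPM in Juni2018, and 5 of 16 were higher (1 without blau replicate 1). Those markers include matrix genes such as COL1A1 and COL3A1, and also PDPN, described above as above the floor in blau alone. Their sum thus does not stand for stromal cells alone. The part of host or stromal cells in the matrix difference was not tested. In bulk tumors, fewer cells of a type and less RNA per cell cannot be told apart. Of 16 integrins 4 were higher and 3 lower (2 and 0 without blau replicate 2, 3 and 0 without Juni2018 replicate 1, 6 and 1 with GC offsets). ITGA9, which binds tenascin and other matrix proteins, was at 6.83 to 11.01 CPM against 42.3 and 35.7 CPM (2.199), and ITGA1, a collagen receptor, was higher too (1.01).

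The oncofetal list joined LIN28B with genes of fetal tissue, genes that let-7 microRNAs repress and others linked to let-7. Some members, such as H19, are thus not let-7 targets. Mature let-7 carries the seed, bases 2 to 8, through which it pairs with its targets. The seed is shown in capitals in hsa-let-7b-5p as RefSeq gives it (chr22:46113691-46113712, plus strand, GRCh38.p14).
hsa-let-7b-5p: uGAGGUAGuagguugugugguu
Its complement in a transcript reads CTACCTC. These letters occurred 5 times in the longest GENCODE transcript of LIN28B and 4 times in those of IGF2BP1 and of DICER1. They occurred 1 time in those of HMGA2, PLAG1 and HMGA1, and 0 times in that of CCND2. Only the longest transcript of a gene was read, over its whole length. Other transcripts of a gene may hold more or fewer matches, so these are not counts of let-7 sites per gene. Of the 18 list genes 14 held at least 1 match, against 25.6% of 14254 tested protein-coding transcripts, and 3 held at least 3, against 0.88%. Many of the genes entered the list as known let-7 targets, so this is a description of the list. In the data 8 of the 18 were higher and 1 lower (10.8% and 7.95% of all genes), with a median of 0.18. IGF2BP1, a fetal RNA-binding protein, had 0.153, 0.160, 0.549 and 0.522 CPM in Juni2018 and 53.6 and 43.0 CPM in blau (7.04 ± 0.27, SE; adjusted p = 5.96e-07, edgeR). CCND2, cyclin D2, had 0.077 to 0.366 CPM against 9.87 and 14.1 CPM (6.04), and PLAG1, a zinc finger factor of fetal tissue, 1.44 to 2.09 CPM against 18.9 and 13.4 CPM (3.14). The noncoding RNA H19 had 0.298 to 0.488 CPM against 4.11 and 3.32 CPM (3.20). HMGA1 holds the same letters and was lower, at 147 to 199 CPM in Juni2018 and 105 and 83.4 CPM in blau (-0.84; -0.64 and not called without blau replicate 2), and IGF2BP3 was not called (0.14; adjusted p = 0.382, edgeR). Of the higher members, LIN28B, IGF2BP1, CCND2 and H19 were below 1 CPM in every Juni2018 library, HMGA2 and PLAG1 were measured in both sets, and IGF2BP2 (0.50) and DICER1 (0.37) differed by less than 1 on the log2 scale. The calls of both were lost without either blau replicate or Juni2018 replicate 1 (0.46 to 0.51 for IGF2BP2, 0.32 to 0.41 for DICER1), and that of DICER1 with GC offsets (0.25). The host gene of let-7b, MIRLET7BHG, was at 37.8 to 52.4 CPM in Juni2018 and 30.2 and 27.2 CPM in blau (-0.62). That call was lost without blau replicate 2 (-0.46), without Juni2018 replicate 1 (-0.58) and with an offset for base composition (-0.28). Mature microRNAs were not measured.

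HOX genes set the position of cells along the body axis in the embryo, and 5 of 29 tested HOX and posterior patterning genes were higher and 1 lower. Besides HOXD13, they were HOXB13, a factor of the posterior hindgut and prostate, with 0.149 to 0.488 CPM in Juni2018 and 17.1 and 19.9 CPM in blau (5.73), HOXD9 (5.63), HOXD8 (3.85) and HOXB9, with 0.536 to 1.04 CPM against 5.51 and 3.03 CPM (2.45). HOXB4, an anterior member of the same cluster as HOXB13, was lower at 6.78 to 7.75 CPM against 4.81 and 4.71 CPM (-0.62), a call lost under 13 of 21 alternatives and without any 1 library except Juni2018 replicate 2 (-0.71 to -0.52). The median of the list was -0.03, and above 0 with upper-quartile scaling (0.06), library size alone (0.04) or GC offsets (0.23), so its sign depended on the scaling. Cancer-testis antigens, germ cell genes that tumors often express, split as well, with 5 of 19 higher and 6 lower. MAGEA1 had 0.522 to 0.843 CPM in Juni2018 and 19.1 and 16.4 CPM in blau (4.71), MAGEB2 0.460 to 0.969 CPM against 6.39 and 6.35 CPM (3.29), and LUZP4 0.319 to 1.28 CPM against 2.42 and 10.5 CPM (2.87). MAGEA4 went the other way, at 45.6 to 53.2 CPM in Juni2018 and 19.03 and 18.2 CPM in blau (-1.42), as did MAGEC1 (-1.69). Different antigens of one gene family thus marked the sets. Without blau replicate 2 the number of lower antigens was 2.

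Interferon-stimulated genes, which cells switch on in response to type I interferon, were higher in 17 of 39 and lower in 0, with a median of 0.40. IFI27 had 3.35 to 6.65 CPM in Juni2018 and 14.2 and 17.5 CPM in blau (1.61), and MX2, an antiviral GTPase, 0.854 to 2.53 CPM against 10.2 and 4.21 CPM (1.88). IFITM1, an antiviral membrane protein, had 0 to 0.427 CPM against 1.44 and 2.35 CPM (3.74), while its neighbors IFITM2 and IFITM3 were measured in both sets and higher by 1.30 and 1.15. IFI44L had 2.07 to 2.99 CPM against 4.21 and 10.5 CPM (1.39), with the higher blau value in the untreated tumor and no call without it (0.88). Each of these 4 genes with values given was apart between the sets, but they were picked by small p or after their values were seen. The number of higher genes was 7 without blau replicate 2 and 13 to 18 with another library left out.

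The response element through which interferon acts is a pair of GAAA blocks. The 250 bases before the RefSeq starts of 3 of these genes are shown because they hold it (GRCh38.p14, 5′ to 3′ on the strand of the gene, plus in each). Capitals mark GAAA, any pair of bases, then GAAA again, searched on both strands, so that a match on the other strand reads TTTC, any pair of bases, TTTC: IFITM1 at chr11:313790-314039, IFI27 at chr14:94110486-94110735 and IFI44L at chr1:78620198-78620447.
IFITM1: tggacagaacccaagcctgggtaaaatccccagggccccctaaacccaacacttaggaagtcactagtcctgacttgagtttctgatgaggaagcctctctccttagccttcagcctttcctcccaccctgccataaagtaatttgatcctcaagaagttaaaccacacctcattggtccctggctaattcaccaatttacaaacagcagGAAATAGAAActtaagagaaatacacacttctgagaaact
IFI27: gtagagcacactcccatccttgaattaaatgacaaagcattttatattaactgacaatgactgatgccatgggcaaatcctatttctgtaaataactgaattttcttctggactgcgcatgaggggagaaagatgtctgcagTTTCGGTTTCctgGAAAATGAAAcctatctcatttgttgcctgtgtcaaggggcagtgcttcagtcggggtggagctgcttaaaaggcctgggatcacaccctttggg
IFI44L: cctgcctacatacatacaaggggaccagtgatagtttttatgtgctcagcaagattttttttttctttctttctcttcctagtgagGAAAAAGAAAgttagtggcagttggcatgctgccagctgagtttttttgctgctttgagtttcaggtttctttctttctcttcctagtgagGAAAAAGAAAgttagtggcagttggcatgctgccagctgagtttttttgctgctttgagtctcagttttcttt
There is 1 match for IFITM1 and there are 2 for IFI27 and 2 for IFI44L. The letters occurred in 8 of the 14 promoters that the table holds for the 17 higher interferon genes (57.1%). They occurred in 3.07% of all 27305 promoters and in 2.42% of those of tested protein-coding genes. Genes entered the list as known interferon-stimulated genes, so this contrast is a description of the list. The share among list genes not called was not counted. A match is a description of the sequence, and no binding was measured.

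Of 18 MHC class I genes 2 were higher (11.1%, near the 10.8% of all tested genes) and 0 lower. They were B2M, the light chain of class I molecules, at 225 to 279 CPM in Juni2018 and 404 and 365 CPM in blau (0.65), and HLA-B (0.65; 0.43 and not called without blau replicate 1). Of 15 MHC class II genes 5 were higher. The class II chain HLA-DRA had 40.3 and 35.5 CPM in the anle138b tumors of Juni2018, 0.488 and 0.075 CPM in its untreated tumors, 148 CPM in the anle138b tumor of blau and 1.51 CPM in its untreated tumor (2.01; adjusted p = 8.69e-05, edgeR). The sets overlapped in this gene, and the blau tumor was the higher one within each treatment; without a treatment term it was not called. CIITA, the transactivator of class II genes, was not called between the sets (-0.28; adjusted p = 0.157, edgeR), nor was CD74, the invariant chain (-0.81; adjusted p = 0.0636, edgeR). Reads of near-identical HLA genes may be split between them, so these values are uncertain. Of 24 NF-kB and cytokine targets 4 were higher, among them IL1B at 0.366 to 0.958 CPM against 2.60 and 1.64 CPM (1.93). Without Juni2018 replicate 1 or blau replicate 1 the number was 2.

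In signalling pathways some members were higher and a few lower. Of 24 Wnt pathway genes 9 were higher and 3 lower, with a median of 0.30. They included NKD1, a feedback inhibitor of Wnt, at 0.843 to 1.27 CPM in Juni2018 and 13.8 and 6.77 CPM in blau (3.22), the receptor FZD8 (2.53) and the secreted inhibitor SFRP1 (0.96). Of 24 TGF-beta and YAP targets 7 were higher and 1 lower (4 and 2 without blau replicate 1), led by ID3, an inhibitor of basic helix-loop-helix factors, at 1.28 to 2.31 CPM against 12.2 and 6.43 CPM (2.24). The members named here were apart between the sets, which their choice by small p favors. Of 19 genes that report Ras-MAPK output 5 were higher and 2 lower (9 and 1 with GC offsets), and of 20 cell cycle inhibitors and melanoma drivers 0 were called. Of 24 p53 targets 4 were higher and 2 lower (1 and 1 without Juni2018 replicate 1, 9 and 2 with GC offsets), TP53I3 being the first by p, at 11.01 to 16.99 CPM against 29.2 and 37.0 CPM (1.15).

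Genes of hypoxia and glycolysis were lower in blau, 16 of 31 with 2 higher and a median of -0.57. The glucose transporter SLC2A1 stood at 72.5 to 133 CPM in Juni2018 and at 64.5 and 34.9 CPM in blau (-1.21). The angiogenic factor VEGFA stood at 89.5 to 120 CPM against 60.2 and 46.2 CPM (-0.93). PDK1, a kinase of pyruvate dehydrogenase, stood at 80.0 to 119 CPM against 59.2 and 56.8 CPM (-0.90). The brain aldolase ALDOC (-1.31) and PFKFB3, which drives glycolysis (-0.66), were lower as well. The blau libraries lay below the Juni2018 range in each of these genes, which were picked by small p or after their values were seen. ADM (1.36) and SLC2A3 (0.65) were the members that were higher. SLC2A1 (-0.88) and ADM (1.01) were not called without blau replicate 2, nor SLC2A3 (0.60) without blau replicate 1. The number of lower genes was 7 without blau replicate 2, 8 without Juni2018 replicate 1 and 9 without blau replicate 1, and the median with GC offsets was -0.41. Housekeeping groups lay below 0 as well, with fewer calls: 6 of 39 cell cycle genes were lower (median -0.16), 8 of 38 ribosomal protein genes (-0.31), 7 of 35 nuclear genes of oxidative phosphorylation (-0.27), 6 of 23 genes of cholesterol synthesis (-0.31) and 6 of 22 heat shock genes (-0.25), against 1 higher among them, in cholesterol synthesis. These counts rested on single libraries: in the same order, 0, 0, 2, 2 and 3 genes were lower without Juni2018 replicate 1, 1, 0, 0, 0 and 2 without blau replicate 2, and 12, 18, 20, 11 and 7 without Juni2018 replicate 2. The amino acid transporter SLC7A5 (-1.22) and the heat shock gene HSPA1B (-1.10) were lower among the stress genes.

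**Figure D3:**
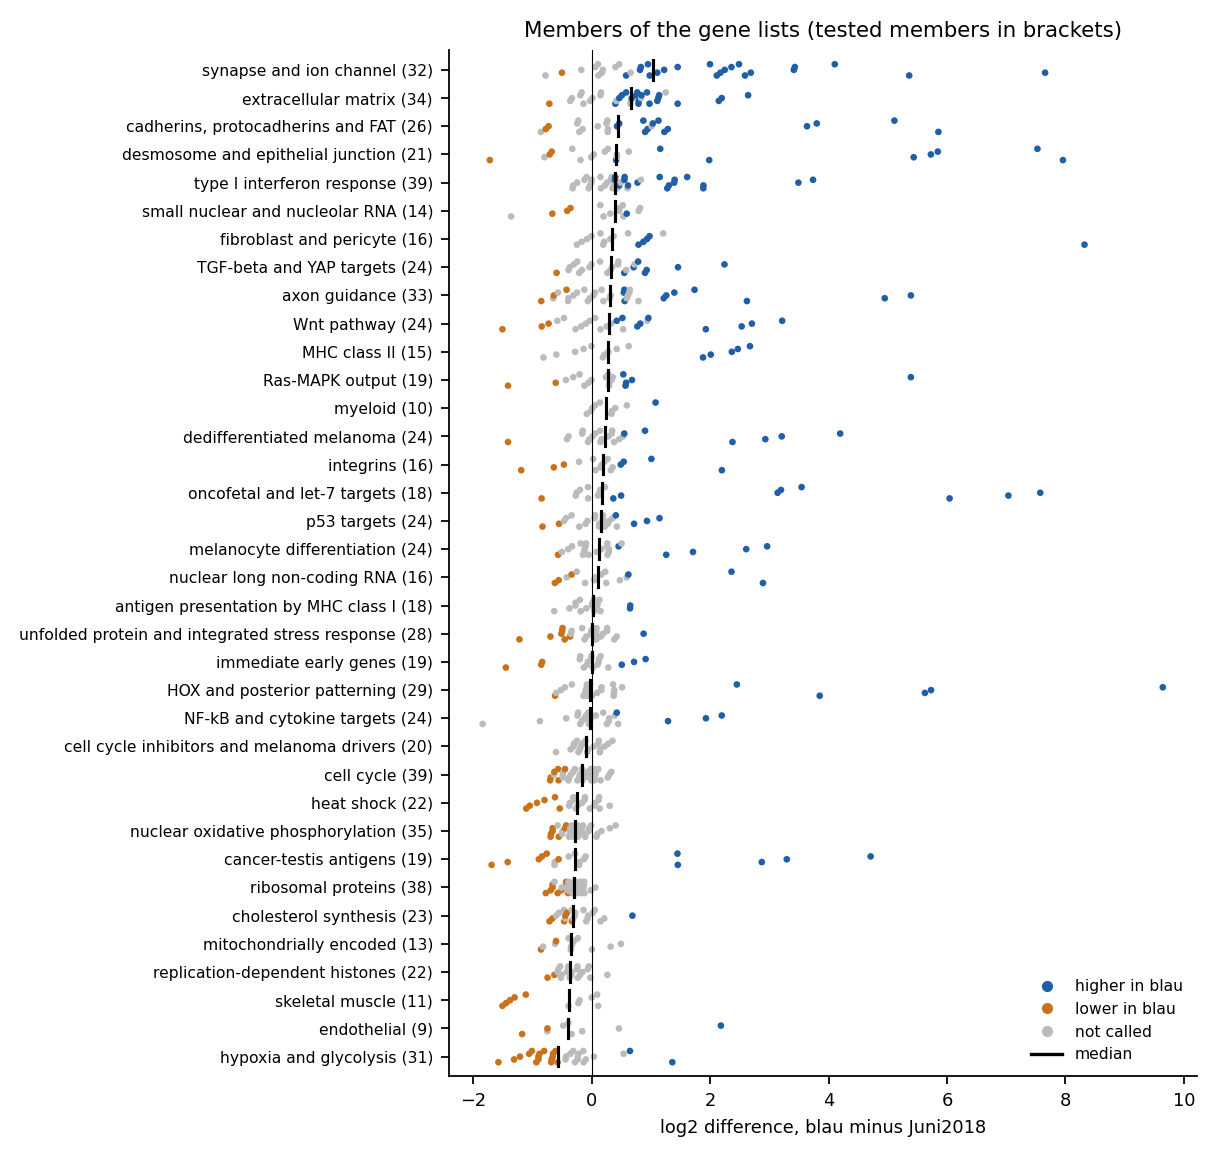
Log2 difference, blau minus Juni2018, of the tested members of 36 gene lists; each point is a gene, blue where called higher, orange where called lower and grey where not called, and the black bar is the median of the list. Synapse and ion channel genes have the highest median (1.04) and hypoxia and glycolysis genes the lowest (-0.57), while in most lists a few members far to the right stand apart from a median near 0.

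The pigment program itself differed in a few genes. Of 24 melanocyte differentiation genes 5 were higher and 1 lower, with a median of 0.12. KIT, the receptor for stem cell factor, had 3.75, 2.15, 2.56 and 3.8 CPM in Juni2018 and 26.1 and 21.9 CPM in blau (2.96 ± 0.21, SE; adjusted p = 1.35e-05, edgeR). TYRP1, an enzyme of melanin synthesis, had 493 and 493 CPM in the anle138b tumors of Juni2018, 146 and 105 CPM in its untreated tumors, and 855 and 698 CPM in the anle138b and untreated tumors of blau (1.71; adjusted p = 0.00371, edgeR). The blau libraries were highest in both genes. MLANA was slightly higher (0.46; 0.38 to 0.53 and not called without either blau replicate or Juni2018 replicate 3), and DCT (0.09) and TYR (0.29) were not called. Of 24 genes of the dedifferentiated state of melanoma 6 were higher and 1 lower, with a median of 0.22. ZEB1, a repressor of epithelial genes, had 0.596 to 1.30 CPM in Juni2018 and 18.1 and 17.9 CPM in blau (4.20), EGFR had 2.46 to 3.83 CPM against 24.1 and 11.4 CPM (2.38), and SOX9 had 0.075 to 0.366 CPM against 1.09 and 2.27 CPM (3.21; 3.14 and not called without blau replicate 2). FOSL1, an AP-1 factor of the same state, was lower (-1.41). The called genes of this state were thus mostly higher, with FOSL1 as the only lower one, while SOX10 and MITF were not called.

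Markers of other cell types were low and mixed. Of 20 skeletal muscle markers 11 were tested and 5 were lower, among them the myosins MYH4, at 22.8 to 35.3 CPM in Juni2018 and 9.69 and 11.3 CPM in blau (-1.45), and MYH1 (-1.51); their summed level was 360 and 365 CPM in blau and 332 to 543 CPM in Juni2018. Of 14 endothelial markers 9 were tested, with KDR higher (2.18) and TIE1 (-0.75) and CDH5 (-1.17) lower, and a summed level of 44.3 and 48.0 CPM against 48.3 to 59.5 CPM. The call of CDH5 was lost without any 1 of blau replicates 1 and 2 and Juni2018 replicates 1 and 3 (-1.58 to -0.77). With GC offsets neither CDH5 (-1.003) nor TIE1 (-0.40) was called. Of 18 myeloid markers 10 were tested and 1 was higher (58.2 and 68.9 CPM against 35.9 to 70.2 CPM in sum), and of 14 lymphocyte markers 3 were tested and 1 was higher (8.64 and 12.7 CPM against 9.82 to 12.0 CPM). Adipocyte markers, 6 of 10 tested and 1 higher, summed to 55.4 and 57.6 CPM against 21.5 to 33.5 CPM, mostly through the lipase gene LPL (1.21). The sources used here do not say how reads from the host animal were treated, and the part of host cells in the set difference was not tested.

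The difference also followed base composition. With genes sorted into 5 groups of equal size by the GC content of the longest transcript, known for 97.9% of the tested genes, the medians were 0.14, 0.08, 0.00, -0.13 and -0.30 from the lowest to the highest GC content. In the group of lowest GC content 14.2% of genes were higher and 2.21% lower, and in that of the highest 6.42% were higher and 18.3% lower. The gradient was steeper in untreated tumors, from 0.21 to -0.45, than in anle138b tumors, from 0.09 to -0.13, a contrast that was not tested. With per-library offsets for GC content, added after the data were seen, 2874 genes were higher (13.1%) and 1445 lower (6.58%). Of the genes called without offsets, 2227 of the 2363 higher and 1124 of the 1745 lower were called again. The part of GC content in the difference of any single gene was not tested beyond this. The 5 genes described first had nearly the same values with it, MAGI1 at 5.47, FAT3 at 5.11, HMGA2 at 3.42, LIN28B at 7.46 and DSP at 7.56.

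**Figure D4:**
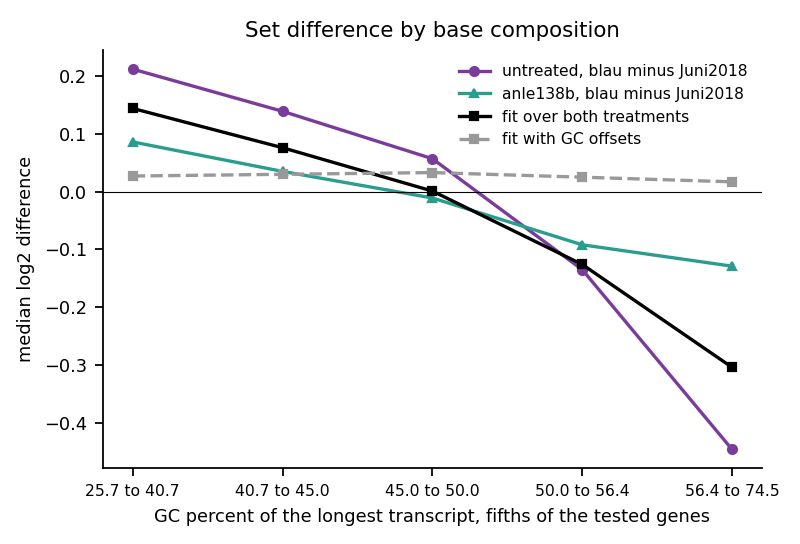
Median log2 difference, blau minus Juni2018, in 5 equal groups of the tested genes by GC percent of the longest transcript, for the fit over both treatments, for each treatment alone and for the fit with GC offsets. The fit over both treatments descends from 0.14 to -0.30, and the fit with offsets is level near 0 because the offsets were built to make it so.

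Genes that differed were not spread evenly over the chromosomes. With GC offsets the median was highest on the X chromosome (0.19, 71.4% of 672 genes above 0), chromosome 20 (0.18, 70.1% of 588), chromosome 5 (0.17, 69.0% of 1056), chromosome 18 (0.16, 63.6% of 360) and chromosome 15 (0.14, 68.9% of 839). In the fit without offsets, 21.9% of the genes on chromosome 5 were called higher, 21.7% on X, 18.3% on 18 and 16.3% on 15. Of all genes 10.8% were. The medians of chromosomes 5, 7, 8, 10, 15, 18, 20, 21 and X were above 0 in each of the 21 alternatives tried, and those of chromosomes 1, 16, 17, 19 and 22 below 0. With GC offsets the medians of the latter lay between -0.05 and -0.02.

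Within chromosomes the difference covered long stretches. In stretches of 10 Mb with at least 20 tested genes, 166 of 289 medians were above 0 with GC offsets. All medians and shares above 0 in this paragraph are with these offsets. The numbers of genes higher and lower are calls of the fit without them. On chromosome 5 the first pair of stretches lay below 0 (-0.25 and -0.17), and every stretch from 50 Mb on lay above it, between 0.12 and 0.53. The highest of them, from 140 Mb, holds the protocadherin clusters and had 49 genes higher and 3 lower. All 9 stretches of chromosome 15, all 7 of chromosome 20 and all 4 of chromosome 21 were above 0, and the one from 20 Mb on chromosome 15 had a median of 0.79 with 25 genes higher and 0 lower. On X, 10 of 12 were above 0, with -0.28 in the first and 0.47 from 100 Mb (30 higher, 1 lower). On chromosome 18, 97.1% of the genes in the last stretch were above 0 (median 0.39), while on chromosome 19 the last stretch had the lowest median of that chromosome (-0.24; 11 higher, 67 lower). Copy number was not measured here.

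**Figure D5:**
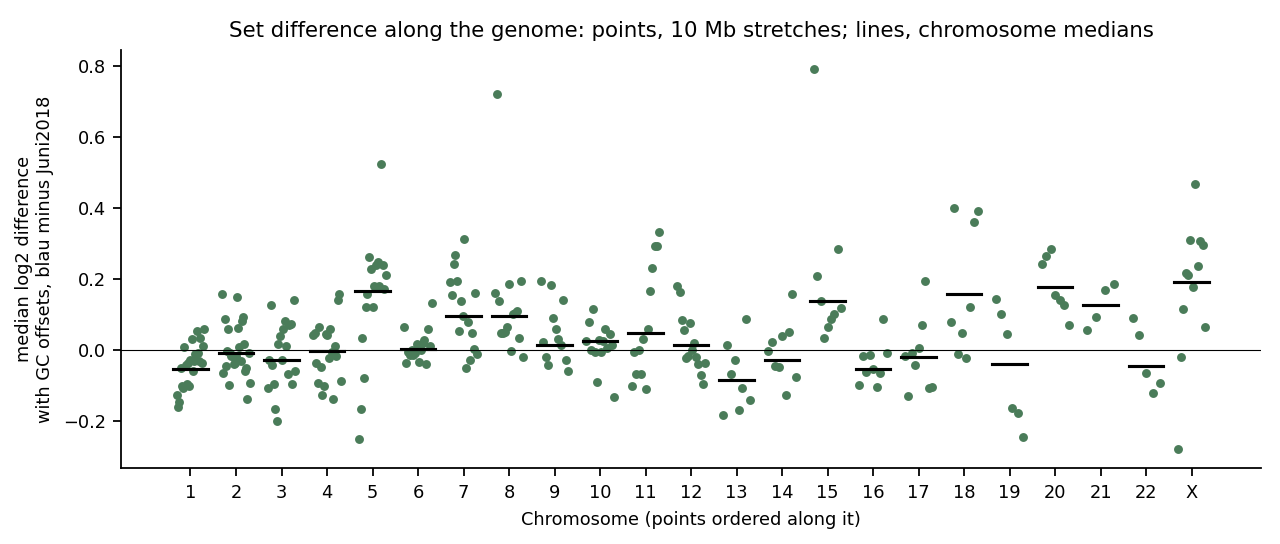
Median log2 difference with GC offsets, blau minus Juni2018, of each 10 Mb stretch with at least 20 tested genes (points, in order along each chromosome) and of each chromosome (lines). Chromosomes 5, 15, 18, 20, 21 and X lie mostly above 0, and single stretches of chromosomes 8, 15, 5 and X stand above the others.

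No gene was called by edgeR for a set difference that depended on treatment. With an interaction of set and treatment in the model, it called 0 of 21958 genes (0.0%), with 1399 at an unadjusted p under 0.05, on 2 residual degrees of freedom that both come from the Juni2018 set. Limma voom called 0 and DESeq2 called 31. Among the 31 was TYRP1, for which the set difference was 2.49 in untreated and 0.79 in anle138b tumors. Within a single treatment, for which 1 blau library faces 2 Juni2018 libraries, the differences of MAGI1, FAT3, HMGA2, LIN28B and DSP had the same sign and a like size in both: for HMGA2 they were 3.56 in untreated and 3.54 in anle138b tumors, and for MAGI1 5.23 and 5.58.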

How the data were processed

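Per the labels' protocols, total RNA came from TRIzol extraction and went into the TruSeq RNA Library Prep Kit v2, which does not mark strand. How far these libraries capture RNAs without a poly(A) tail, such as histone and small RNAs, was not tested. Each tumor has a deposited file of raw counts for 60617 Ensembl identifiers. The submitters' processing notes name featureCounts 1.5.0-p1, STAR 2.5.2a, bcl2fastq 2.17.1.14 and the build hg38. The sources used here do not state the annotation release or how multiply mapped and host reads were treated. Positions and biotypes came from GENCODE release 29 (58542 identifiers matched), and promoter and microRNA sequences from RefSeq tables of GRCh38.p14.

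Sets were taken from the titles and treatment from its label. Genes were kept by filterByExpr by set (minimum count 10, minimum total 15), scaled by TMM and tested with edgeR 4.0.16 in R 4.3.3 (quasi-likelihood F test, set plus treatment, 3 residual degrees of freedom, Benjamini-Hochberg adjustment at 0.05). The F statistic gave the standard errors. The biological coefficient of variation was 12.9%. CPM are over the tested genes, log2 CPM used a prior count of 2, and ratios of summed CPM carry exact conditional 95% intervals, which cover counting error only since reads have no molecular identifiers. Differences within a treatment are differences of log2 CPM, which the prior count shrinks for genes at the floor. The members, the 41 gene lists and the tests were chosen with earlier results of these data known. The text names the 15 highest and 15 lowest called protein-coding genes (average log2 CPM of at least 1, blau outside the Juni2018 range) or a selection of them, 5 each way of other biotypes, the first 5 genes described, and of each list up to 4 members with the smallest p. ADM, C6orf223, CD74, CDH1, CDH2, CIITA, DCT, DICER1, DSC2, DSG2, GABRA5, H19, HMGA1, HOXB4, HOXB9, IFI44L, IFITM1, IGF2BP2, IGF2BP3, KRT18, MITF, MLANA, PKP2, PLAG1, PMEL, PRKCQ, SFMBT2, SH3RF2, SLC2A1, SLC2A3, SOX10 and TYR fall outside that rule and were chosen after their values were seen. Some genes that the rule took are not reported here. On simulated data with 200 changed genes among 20761, the test found 20% of those with a log2 change of 0.5, 86% at 1, 100% at 2 and 100% at 3. It made 22 false calls among 175 (12.6%), above the threshold of 0.05. Alternatives were other scalings and filters, DESeq2 1.42.0, limma 3.58.1 (voom), no treatment term, each treatment alone, thinning, gene subsets, GC offsets in 20 bins and leaving out each library.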

Additional observations from a re-analysis of the deposited data

Results flagged for a closer look

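Within the 4 Juni2018 libraries, 1 library stood apart from the other 3 in 8 of the genes named (gap over range above the 95% limit of Dixon's test, which chance passes in about 1 of 20 groups). In SLFN11, PDPN and DSC3 the ratio was 1.0 because a single count fell in 1 library and 0 in the others (0.061, 0.0745 and 0.061 CPM). In LIN28B it was 0.889, for 0.122 CPM in replicate 3 against 0.0745 to 0.0798 CPM, again a matter of 1 or 2 counts. In PDK1, the pyruvate dehydrogenase kinase, it was 0.941, for 80.0 CPM in replicate 3 against 117 to 119 CPM. In IL1B it was 0.841, for 0.958 CPM in replicate 2 against 0.366 to 0.460 CPM. In C6orf223 it was 0.931, for 3.06 CPM in replicate 4 against 1.15 to 1.28 CPM. In PMEL it was 0.848, for 9575 CPM in replicate 2 against 12920 to 13520 CPM. In none of these 8 genes did the library apart reach the blau values, although in PMEL it came close to blau replicate 1 (9062 CPM).

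The set difference depended on treatment in 2 of the named genes by DESeq2's test of the interaction, while edgeR called neither. For TYRP1 the interaction was -1.66 (adjusted p = 6.76e-05, DESeq2), the set difference being smaller in anle138b tumors. For CDH1 it was -1.14 (adjusted p = 0.0411, DESeq2), the set difference being 0.96 in untreated and -0.20 in anle138b tumors. In N-cadherin, CDH2, the set difference was -0.20 in untreated and 0.38 in anle138b tumors. That reversal was called by neither test.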

How the results depend on the processing

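The direction of every called gene named held under each of the 21 alternatives that gave it a value, and 61 of the 101 called genes named were called in all of them; 31 of 41 list medians kept their sign. The number called was 2422 with anle138b tumors alone (735 lower), 861 with glmTreat at a log2 difference of 1 (791 higher, 70 lower) and 6250 with no low-count filter (3894 higher). With 1 library left out it ranged from 1665 to 5960, the higher genes from 1293 to 2975 and the lower from 372 to 2985. The cause was not tested. By design glmTreat asks for a larger difference, a missing filter tests more genes and a left-out library leaves fewer samples. A lone blau library is assumed to vary like Juni2018. Fewer samples did not always go with fewer calls: without Juni2018 replicate 2 the number was 5960, against 4108 with all libraries. The interaction of set and treatment had 31 calls with DESeq2's Wald test. Genes at the floor of Juni2018 and measured in blau numbered 74 under 0.1 CPM and 324 under 0.5 CPM. They numbered 86 at 2 CPM or more and 20 at 5 CPM or more. In the opposite direction the numbers were 1, 13, 0 and 0, in the same order. With 1 library left out they were 194 to 243 against 7 to 11, and they cannot fall in that case. The limits themselves set these counts. The lowest median of a 10 Mb stretch was -0.42, -0.65 in stretches of 5 Mb and -0.28 with GC offsets. No paired analysis was possible because the replicate numbers follow accession order only and match no tumor of one set to another of the other. Depth limits genes under about 0.24 CPM in Juni2018, where a count of 0 allows that level.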

Other observations

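Gene groups not described above showed small shifts or a few separate members. Of 22 replication-dependent histone genes 2 were lower and 0 higher, with a median of -0.36, and without Juni2018 replicate 2 the number of lower genes was 15. Of 28 genes of the unfolded protein and integrated stress response 7 were lower and 1 higher (median 0.01). Immediate early genes gave 3 higher and 3 lower of 19, and nuclear long non-coding RNAs 3 and 3 of 16, among them BANCR, a noncoding RNA of melanoma, which stood at 2.83 to 4.95 CPM in Juni2018 and at 23 and 18.7 CPM in blau (2.36). Of 14 small nuclear and nucleolar RNA genes 1 was higher and 3 lower, and 9 were higher without blau replicate 1. Of 13 mitochondrially encoded genes 2 were lower (median -0.35), with 9 lower without blau replicate 2 and 2 higher without blau replicate 1. Of 15 keratinocyte markers 7 were tested and 1 was higher, and of 7 erythroid markers 2 were tested and 1 was lower.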
